A study of Mus musculus with 4 samples.

Results

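The genes described here encode aldo-keto reductases (Akr), aldehyde dehydrogenases (Aldh), cytochromes P450 (Cyp), sulfotransferases (Sult) and UDP-glucuronosyltransferases (Ugt), measured in a mouse mammary epithelial cell line with and without TGF-beta. They were found by symbol: every gene with a single symbol that begins with 1 of the 5 family names directly followed by a digit, leaving out Aldh1a1, Aldh1a2, Aldh1a3 and Cyp51. This gave 90 of the 14847 named genes of the gene-level table, and 1344 of 209279 named probesets of the exon-level table, which belonged to 130 symbols. NMuMG, an established line from normal mouse mammary gland, was kept in DMEM that held glucose at 4.5 g/l, insulin at 10 ug/ml and serum at 10%. The treated cells received recombinant human TGF-beta1 at 1 ng/ml for 24 h, and the control cells received none. Both groups shared that medium, with its insulin, serum, penicillin and streptomycin. Each condition was represented by 1 array at gene level and 1 column at exon level, and the levels were not treated as replicates of each other, so no difference below has a replicate check and no p-value was computed.

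As background, Cyp, Akr and Aldh enzymes oxidise or reduce hormones, lipids, retinoids and foreign compounds, and Sult and Ugt enzymes then attach a sulfate or a glucuronic acid that makes the product easier to export. Most P450s sit in the endoplasmic reticulum and take electrons from a reductase, sometimes through cytochrome b5, while sulfotransferases need an activated sulfate and glucuronosyltransferases need UDP-glucuronic acid. The families are best known from liver and gut, and several members are also made in other epithelia. Many members lie in arrays of close copies on a chromosome, and probes can bind transcripts of such copies, so the values of close paralogs are uncertain.

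Intensities are linear, and a difference is the log2(intensity + 1) of treated cells minus that of untreated cells. A gene counted as at level if its brighter array reached 124, the median of all gene-level values, and a probeset if its brighter array reached 265, the median of the exon-level values. Genes at least 2-fold apart (a difference of at least 1 in size) were counted as higher or lower. Over all 9159 genes at level the median difference was −0.27, with 797 lower and 209 higher. That split moved to 401 lower and 373 higher when the arrays were centred on their median difference, to 403 and 343 after quantile normalization, and to 437 and 330 with the trend against level taken out, so the differences below are best read against that shift. As to the cells, 4 of 6 mammary epithelial markers measured were at level. These were Krt18 (8494 untreated, 9785 with TGF-beta), Cdh1 (4153 and 1698), Elf3 (497 and 165) and Cldn3 (139 and 160). Epcam (68.5 and 62.2) and Cldn7 (88.1 and 92.7) were below the rule in both arrays. None of 4 milk and luminal markers, 4 endothelial markers and 4 leukocyte markers measured was at level. Of 5 basal markers only Acta2 was (77.1 and 286), and of 6 fibroblast markers 2 were. The summed intensity of all 6 fibroblast markers was 515 and 848. Of 3 adipocyte markers Plin1 alone was at level (156 and 259). The part of these cell types in the results was not tested. In these bulk samples, fewer cells that make an enzyme and less of its RNA per cell cannot be told apart.

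With TGF-beta, the largest differences among these enzymes were all downward and fell in different families: the reductase Akr1c19, the sulfotransferase Sult1c2, the glucuronosyltransferase Ugt2b34 and the P450 Cyp2s1. Of the 90 genes, 32 were at level, and of these 10 were at least 2-fold lower, 1 was higher and 21 lay within 2-fold. The share of 31.3% lower stood beside 8.70% of all genes at level, and the 1 higher gene beside 2.28%. Their median difference was −0.65. These counts hold only genes bright enough in at least 1 array, and a gene can be at level through the array in which it is bright. Of the 32, 22 reached the rule in both arrays, and 3 of those (Sult2b1, Cyp2s1 and Aldh3a2) were at least 2-fold lower, where 7.15% of all genes at or above the rule in both arrays were. Without any filter, 12 of the 90 were lower and 2 higher, beside 5.81% lower of all 14847 genes, and the median of the 90 was 0.062.

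**Figure D1:**
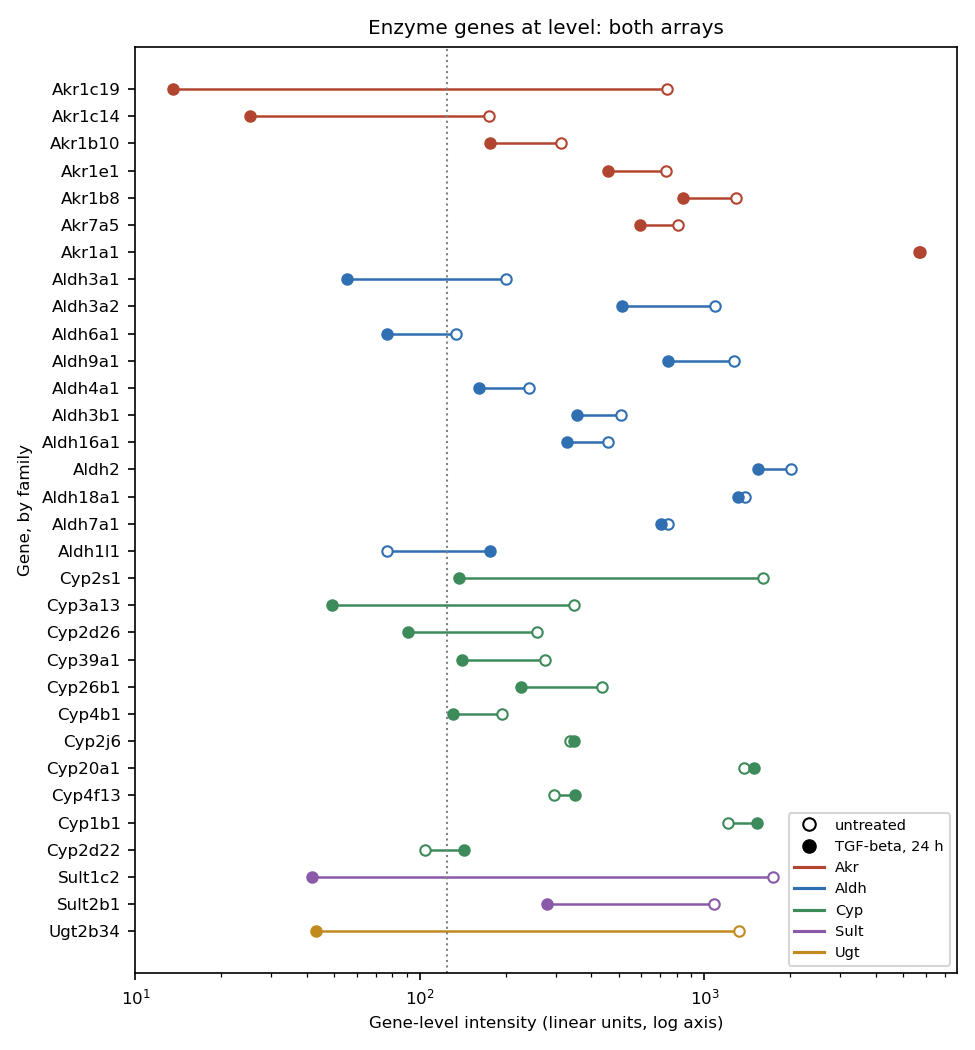
Gene-level intensity (linear units on a log axis) of the 32 enzyme genes at level, by family, in untreated cells (open circles) and after 24 h of TGF-beta (filled circles); the dotted line is the level rule of 124. Akr1c19, Sult1c2 and Ugt2b34 lay far above the rule in untreated cells and below it with TGF-beta, whereas the 2 circles of Akr1a1 coincided.

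Promoter sequence is shown for Cyp2s1, Sult1c2 and Ugt2b34. These were the members past 2-fold whose start site in the RefSeq promoter table (GRCm38.p6) was also the gene's start in the RefSeq gene table. The 250 bases printed thus lie wholly before the gene. They show what lies at genes that were among the most reduced in 3 different families. Each is written 5′ to 3′ on the strand of the gene, ending at the base before the start site, and capitals mark matches to 6 motifs searched on both strands.
Cyp2s1, chr7:25816526-25816775, minus strand: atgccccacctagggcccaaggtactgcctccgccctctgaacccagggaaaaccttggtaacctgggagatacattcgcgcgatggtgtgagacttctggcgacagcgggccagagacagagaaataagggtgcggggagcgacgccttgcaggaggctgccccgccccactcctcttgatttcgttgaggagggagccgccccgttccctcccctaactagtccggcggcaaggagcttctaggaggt
Sult1c2, chr17:53845959-53846208, minus strand: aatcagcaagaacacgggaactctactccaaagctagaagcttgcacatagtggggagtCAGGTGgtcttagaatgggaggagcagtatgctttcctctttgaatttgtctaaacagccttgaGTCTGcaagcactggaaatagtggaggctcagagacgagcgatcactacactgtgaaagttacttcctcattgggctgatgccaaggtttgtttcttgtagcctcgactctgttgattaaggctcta
Ugt2b34, chr5:86906938-86907187, minus strand: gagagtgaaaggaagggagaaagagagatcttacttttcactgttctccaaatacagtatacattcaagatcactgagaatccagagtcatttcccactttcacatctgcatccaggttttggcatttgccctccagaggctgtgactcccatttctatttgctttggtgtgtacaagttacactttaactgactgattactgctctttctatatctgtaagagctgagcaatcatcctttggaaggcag
The motifs were GCGTG (the core of sites for the xenobiotic receptor Ahr), TGACNNNGC (the antioxidant response element), CACCTG (an E-box of the kind that Snail and Zeb repressors bind), GTTAAT (part of the HNF1 site), CAGAC (a Smad box) and TATAAA (the TATA box). The Sult1c2 window held CACCTG on the other strand 191 to 186 bases before the start and CAGAC on the other strand 127 to 123 bases before it, with no overlap between them. The Cyp2s1 and Ugt2b34 windows held none of the 6 strings, which says only that these letters are not in these windows. Across the 10 windows of the 9 lower members that the table holds, CACCTG was found in 4 (Akr1c19, Cyp3a13, Sult1c2 and Sult2b1), CAGAC in 3, GCGTG in 2, GTTAAT and TATAAA in 1 each and TGACNNNGC in 0. Of all 32851 windows in the table, 17.2% held CACCTG, 42.2% CAGAC, 28.2% GCGTG, 6.43% GTTAAT, 12.4% TATAAA and 10.2% TGACNNNGC.

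The aldo-keto reductases differed most within the Akr1c group, which holds the hydroxysteroid dehydrogenases. Of 13 Akr genes, 7 were at level, with 2 lower, 5 within 2-fold and a median of −0.68. Akr1c19 (transcript cluster 6804526) dropped from an intensity of 739.8 without TGF-beta to 13.5 with it (−5.67). On the log2(intensity + 1) scale it was 51.0-fold higher in untreated cells, but 13.5 lies close to the lowest intensity in the table, 3.76, and with a pseudocount of 16 the difference was −4.68. All 7 of its probesets at level were lower, from −6.72 to −4.67 with an SD of 0.71, which is a spread along the transcript and not between cultures. Akr1c14, which in mouse and rat acts on the 3-alpha position of steroids, was at 175 and 25.3 (−2.74), and its 5 probesets at level had a median of −3.18 ± 0.82 (SD). Akr1c18, which inactivates progesterone, was below the rule in both arrays, at 58.0 and 18.8 (−1.57), with 1 probeset at level at −1.90.

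Close neighbours of Akr1c19 did not share a value. In the order of the RefSeq assembly the genes run Akr1c14, Akr1c18, Akr1c13, Akr1c19, Akr1c12, Akr1c6, Akr1c20, Akr1c21 and Akr1e1. Akr1c13 and Akr1c12 had no gene-level cluster of their own, and their 3 probesets each at level had medians of −0.55 and −0.96. Akr1c6, Akr1c20 and Akr1c21 lay below 20 in both arrays, where signal cannot be told from background. Akr1e1, a reductase of 1,5-anhydrofructose, was at 732 and 457 (−0.68), within 2-fold. The largest differences thus sat at Akr1c14 and Akr1c19. Those between and beyond them were smaller, but some were read at exon level alone and others below the rule. The plot of neighbouring genes shows the gene-level values only.

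The other Akr genes at level lay within 2-fold. Akr1b8, a relative of aldose reductase, was at 1295 and 840.2 (−0.62), with all 10 probesets at level below 0. Akr1b10 was at 312 and 176 (−0.83); a second, dimmer cluster of that symbol was at 28.2 and 20.4. Akr7a5, a reductase of small aldehydes, was at 809.9 and 594 (−0.45). Akr1a1, an aldehyde reductase that takes part in vitamin C synthesis in mice, was at 5696 and 5706 (0.00), with 11 probesets between −0.31 and 0.14. Its gene-level difference was 0.28 after centring, −0.03 after quantile normalization and 0.02 with the trend taken out.

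**Figure D2:**
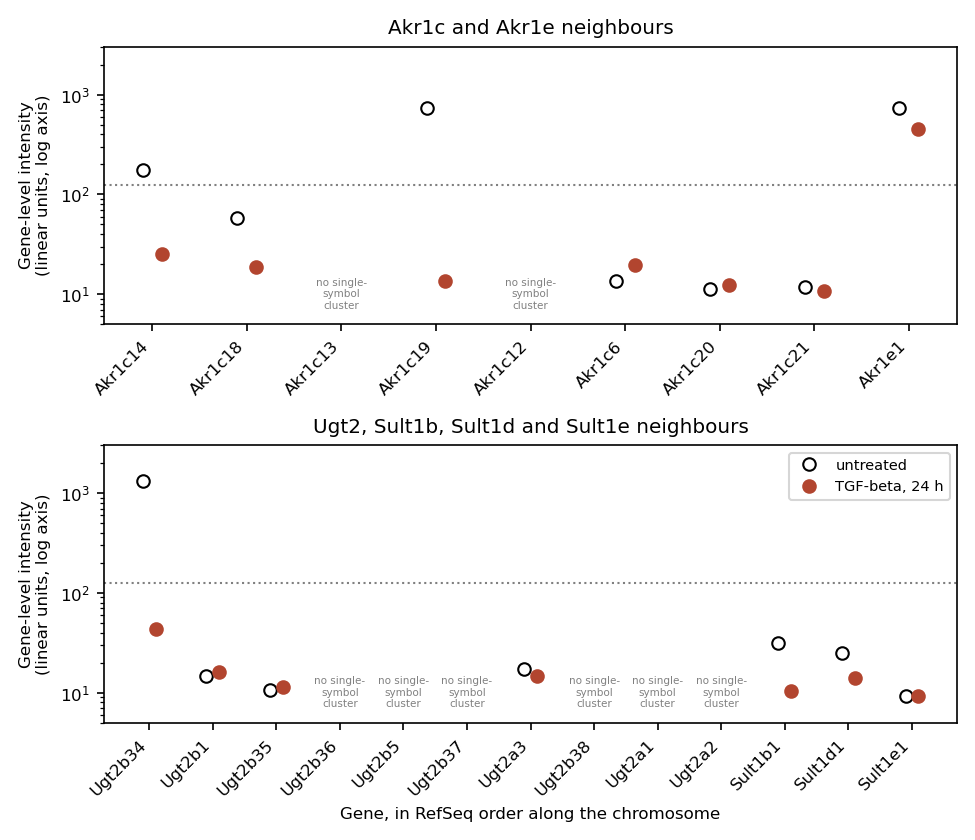
Gene-level intensity (linear units on a log axis) of genes in RefSeq order along the chromosome, in untreated (open) and TGF-beta cells (filled); the dotted line is the level rule of 124, and symbols without a cluster of their own are marked. In the upper panel Akr1c19 dropped from 739.8 to 13.5. The genes next to it, Akr1c13 and Akr1c12, have no value plotted, and the nearest plotted genes, Akr1c18 and Akr1c6, lay below the rule in both arrays. In the lower panel Ugt2b34 was the only gene plotted that passed the rule.

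The aldehyde dehydrogenases held members in both directions. Of 15 Aldh genes, 11 were at level, with 2 lower, 1 higher and 8 within 2-fold, and a median of −0.51. Aldh3a1, which oxidises aldehydes of lipid peroxidation and is abundant in the cornea, was at 201 and 55.5 (−1.84), and its 4 probesets at level lay between −3.31 and −1.65. Aldh3a2, the fatty aldehyde dehydrogenase, was at 1087 and 513 (−1.08), with all 11 probesets below 0, of which 7 passed 2-fold (median −1.04 ± 0.30, SD). Its difference lay within 2-fold under each of the 3 scalings, at −0.81 after centring, −0.74 after quantile normalization and −0.73 with the trend taken out. In the opposite direction, Aldh1l1, which takes formyl groups from the folate pool, was at 76.6 and 176 (1.19). It was the only member at level counted as higher, and its untreated intensity lay below the rule. Of its 27 probesets 8 were at level, all above 0 and 7 of them at least 2-fold higher, with a median of 1.91 ± 0.96 (SD).

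Several Aldh genes at level lay within 2-fold, among them some of mitochondrial and amino acid metabolism. Aldh2, which clears acetaldehyde in mitochondria, was at 2007 and 1543 (−0.38), with 16 of 17 probesets at level below 0. Aldh9a1, of carnitine synthesis, was at 1265 and 745 (−0.76), and all 18 of its probesets lay between −1.53 and −0.30. Aldh18a1, which makes a precursor of proline, was at 1386 and 1308 (−0.08), and its sign turned under the scalings (0.19, 0.14 and 0.15). Aldh4a1, which breaks proline down, was at 243 and 161 (−0.59), while its 14 probesets at level had a median of −1.09 ± 0.69 (SD), so both levels fell on different sides of 2-fold. Aldh7a1 of lysine breakdown (742 and 701, −0.08) turned sign as well, to 0.19, 0.26 and 0.27.

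Aldh1a7 gave unlike values at both levels. Its gene-level intensities of 68.9 and 39.0 lay below the rule (−0.81), but 6 of its 15 probesets were at level, and these had a median of −4.10 ± 1.11 (SD). The brightest of them went from 6621 to 372. Its close copy Aldh1a1, which is not among these members, was at 2396 and 163.7 at gene level (−3.86). Whether transcripts of Aldh1a1 were read by probesets of Aldh1a7 was not tested.

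Among the cytochromes P450, 46 genes were measured and 11 were at level, with 3 lower, 8 within 2-fold and a median of −0.57. Cyp2s1 (transcript cluster 6965984), a P450 of epithelia such as lung, gut and skin, had intensities of 1601 without and 137 with TGF-beta (−3.54). Both values lay above the rule of 124, that with TGF-beta only slightly. At exon level, its probesets with differences of −2.96 or below had at most 252 with TGF-beta, under the exon-level rule of 265. Cyp3a13, a member of the drug-metabolising 3A group found in mouse gut, was at 347 and 49.1 (−2.80), and all 13 of its probesets at level were lower, between −4.26 and −1.72. Cyp2d26 was at 259 and 91.1 (−1.49), but its 7 probesets at level ran from −3.51 to 0.76. The P450s in the next places lay just within 2-fold. These were Cyp39a1, which acts on a hydroxylated cholesterol in liver (276 and 141, −0.97), and Cyp26b1, which breaks down retinoic acid (435 and 226, −0.94). The 6 probesets of Cyp26b1 at level were split, with 4 below 0 and 2 above it.

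Some P450s lay above 0. Cyp1b1, an oxidiser of oestradiol and polycyclic hydrocarbons that Ahr can induce, was at 1205 and 1526 (0.34), with 6 of 7 probesets above 0. Cyp20a1, a P450 of unsettled function, was at 1378 and 1489 (0.11), Cyp4f13, of a fatty acid hydroxylase group, at 296 and 349 (0.24), and Cyp2j6, of an arachidonic acid epoxygenase group, at 337 and 349 (0.05). Cyp2d22, near the rule at 104 and 143, was at 0.46. All 5 kept a difference above 0 under the 3 scalings. Of the 35 Cyp genes not at level, the differences ran from −0.26 to 1.03, and the largest was that of Cyp11a1, which starts steroid hormone synthesis, at 30.6 and 63.7. Cyp1a1 and Cyp1a2, the classical targets of Ahr, were also below the rule, at 57.2 and 52.8 and at 41.7 and 55.7. No gene-level intensity of these 35 exceeded 112.

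**Figure D3:**
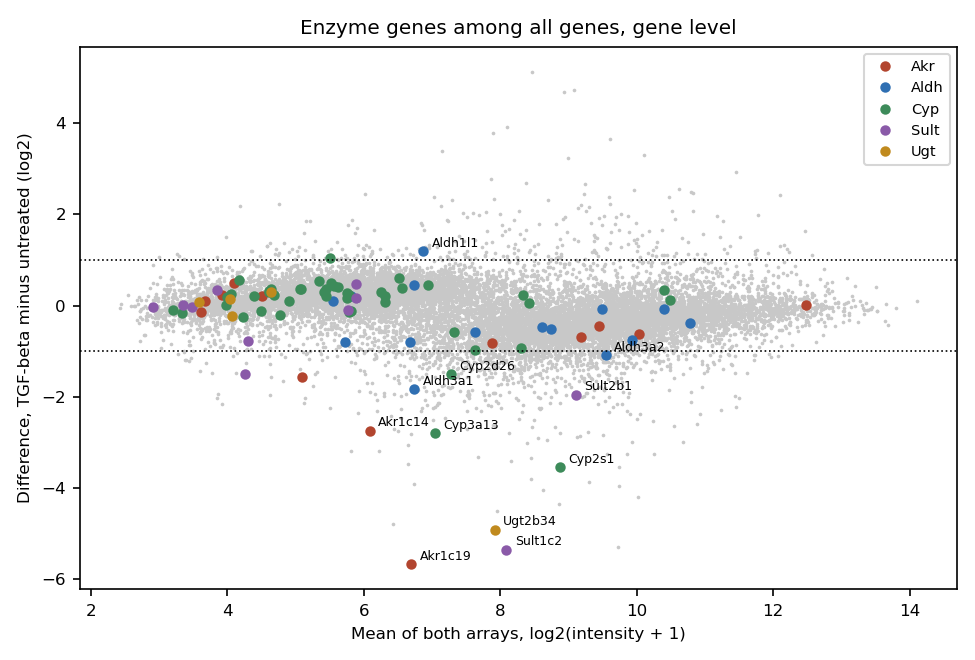
Gene-level difference (TGF-beta minus untreated, log2) against the mean log2(intensity + 1) of both arrays, for all 14847 named genes (grey) and the 90 enzyme genes (coloured by family), with those at level and past 2-fold named; dotted lines mark differences of 1 and −1. The 3 lowest enzyme genes, at −5.67, −5.35 and −4.91, lay at middle levels, and most dim members lay slightly above 0.

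Both sulfotransferases at level were lower, of 11 Sult genes measured. Sult1c2 (transcript cluster 6856108), of the phenol sulfotransferase family and known in rodent stomach and kidney, had intensities of 1737 without and 41.7 with TGF-beta (−5.35). The treated intensity lay below the rule, and with a pseudocount of 16 the difference was −4.92. Sult1c2 was 40.7-fold higher in untreated cells, and all 9 of its probesets were lower, between −6.25 and −2.21. Its neighbour Sult1c1 was below the rule in both arrays (11.8 and 15.3). Sult2b1, which sulfates cholesterol in skin and other epithelia, was at 1083 and 279 (−1.95), both above the rule, and 8 of its 9 probesets at level were lower by at least 2-fold. The other 9 Sult genes had no intensity above 68.6. Among them Sult1b1, which acts on thyroid hormones and phenols, was at 31.2 and 10.3 (−1.51), Sult1e1, the oestrogen sulfotransferase, at 9.17 and 9.25, and Sult4a1 at 49.0 and 68.6.

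Of 5 glucuronosyltransferase genes, 1 was at level. Ugt2b34 (transcript cluster 6939695), of the group that conjugates steroids, had intensities of 1325 without and 43.1 with TGF-beta (−4.91), 30.1-fold higher in untreated cells. Ugt2b34 lay below the rule with TGF-beta, and with a pseudocount of 16 its difference was −4.50. Its neighbours Ugt2b1 (14.5 and 16.2) and Ugt2b35 (10.7 and 11.3) lay near the bottom of the scale in both arrays. Ugt2a3 was at 17.1 and 14.6 at gene level, although 1 of its 11 probesets went from 2933 to 154 (−4.24). Ugt8a, which makes the galactosylceramide of myelin, was at 21.4 and 26.7. The Ugt1a genes share their later exons and are annotated together: a cluster of 8 Ugt1a symbols, not among these members, was at 1341 and 484.8 (−1.47), and the single Ugt1a5 probeset was at 313 and 22.5 (−3.74).

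At exon level, all 9 probesets of Sult1c2, all 7 at level of Akr1c19 and 8 of 9 of Ugt2b34 were at least 2-fold lower, but only 4 of 7 at level of Cyp2d26. Of 1344 member probesets, 402 of 67 symbols were at level, and 116 (28.9%) were at least 2-fold lower, where 11.6% of all 118109 named probesets at level were. On the other side, 13 (3.23%) were higher, where 3.55% of all were. After quantile normalization 396 were at level, with 84 (21.2%) lower and 27 (6.82%) higher, where 6.16% and 6.83% of all named probesets at level were. By family, 17 of 63 Akr, 38 of 165 Aldh, 34 of 144 Cyp, 17 of 19 Sult and 10 of 11 Ugt probesets were lower, and probesets of a gene are not independent of each other. Most of the 116 lower probesets belonged to genes already lower at gene level, such as Cyp3a13 (13), Cyp2s1 (11) and Sult1c2 (9). The exon-level share is thus no second result. A probeset can also be at level through the column in which it is bright, and a share for both columns was not computed. The median over all member probesets at level was −0.40, beside −0.23 over all named probesets at level. Symbols found at exon level alone numbered 40. The best covered of these was Cyp4f16, with 11 probesets at level and a median of 0.48 ± 0.27 (SD), followed by Cyp21a1, the steroid 21-hydroxylase, with 6 at 0.25 ± 0.37 (SD).

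**Figure D4:**
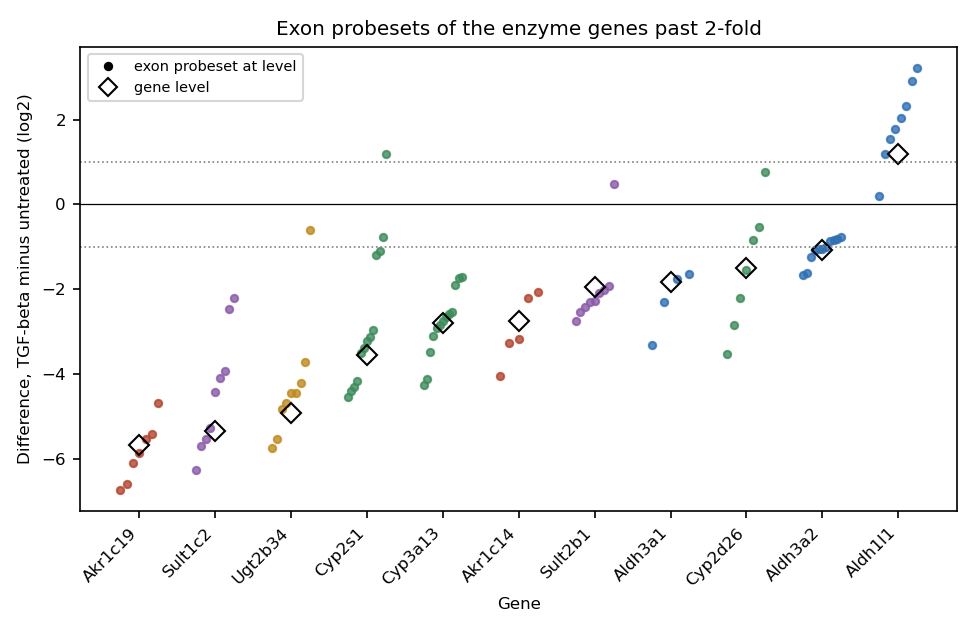
Difference (TGF-beta minus untreated, log2) of each exon probeset at level (dots, coloured by family, sorted within a gene) and of the gene-level value (diamonds) for the 11 enzyme genes past 2-fold; dotted lines mark 1 and −1. Single probesets of Cyp2s1 (1.19), Cyp2d26 (0.76) and Sult2b1 (0.49) lay above 0 in genes that were lower. Those of Cyp2s1 and Cyp2d26 carried the shared fractional part described under the other observations.

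Single probesets departed from the rest of their transcript in several of these genes. The splicing index sets the difference of a probeset against the median of its gene's remaining probesets, and probesets whose index reached 1 in either direction were called departing. Of 344 member probesets with an index, in 33 genes, 48 departed (14.0%), where 3.64% of all 108360 probesets with an index did. Genes past 2-fold at gene level held 36 of the 48. The share of departing probesets over all genes past 2-fold was not computed, so the 14.0% is not set against genes with differences as large. In Cyp2s1, 9 of 13 probesets lay between −4.54 and −2.96, while 3 lay between −1.18 and −0.76 and probeset 5196537 was higher, at 488 and 1112 (1.19, index 4.48). The 3 intermediate ones still had 597 to 666 with TGF-beta, where the other 9 had at most 252. In Ugt2b34, probeset 4632920 was at 573 and 376 (−0.60, index 3.96), while the other 8 lay between −5.74 and −3.71, the lowest being probeset 4934708 (1619 to 29.3, index −1.30).

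In Sult2b1, probeset 4956046 was at 346 and 487 (0.49, index 2.78), and the other 8 at level lay between −2.74 and −1.91. Sult1c2 had no probeset above −2.21, and its probeset 4725292 (1278 to 275) had an index of 2.63. Cyp2d26 had 6 of 7 probesets at level departing, led by probeset 4531952 (219 to 370.1, index 2.63). In Aldh16a1, whose gene-level difference was −0.47, probeset 5467811 was at 602 and 1561 (1.37, index 1.91), and in Aldh1a7 probeset 4791526 had an index of 2.32. Among Akr genes the largest indices were those of Akr1c14 probeset 4359707 (difference −4.05, index −1.35) and Akr7a5 probeset 5302784 (976 to 1589, index 1.33). Cyp2s1 probeset 5196537, Cyp2d26 probeset 4531952 and Aldh16a1 probeset 5467811 also carried a fractional part shared by some exon-level intensities, described under the other observations. Positions along the transcripts are not used here, so none of the departing probesets is tied to a given exon, and what each reads was not tested.

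Genes that serve or regulate these enzymes were lower in part. Of a list of 80 partner genes, 67 had a cluster with a single symbol and 46 were at level, with 16 lower, 0 higher and 30 within 2-fold, beside 8.70% lower over all genes at level. Their median was −0.65. The count of lower genes was 8 after centring, 9 after quantile normalization and 11 with the trend taken out. Over all genes at level, 401 of 9159, 403 of 9211 and 437 of 9159 were lower under these scalings. For the supply of electrons and cofactors, 4 of 12 were lower, but 1 after centring (Slc26a2), 2 after quantile normalization (with Cyb5a) and 3 with the trend taken out (with Fdx1 too). The sulfate importer Slc26a2 was at 5554 and 1402 (−1.99), the mitochondrial ferredoxin Fdx1 at 246 and 109 (−1.16), cytochrome b5 (Cyb5a) at 6309 and 2952 (−1.10), and Slc35d1, which brings UDP-glucuronic acid into the endoplasmic reticulum, at 677 and 321 (−1.07). Enzymes that make the activated donors were within 2-fold: Ugdh, which makes UDP-glucuronic acid, was at 5744 and 6739 (0.23), and the sulfate activators Papss1 and Papss2 differed by −0.24 and 0.49, the former turning sign under all 3 scalings.

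**Figure D5:**
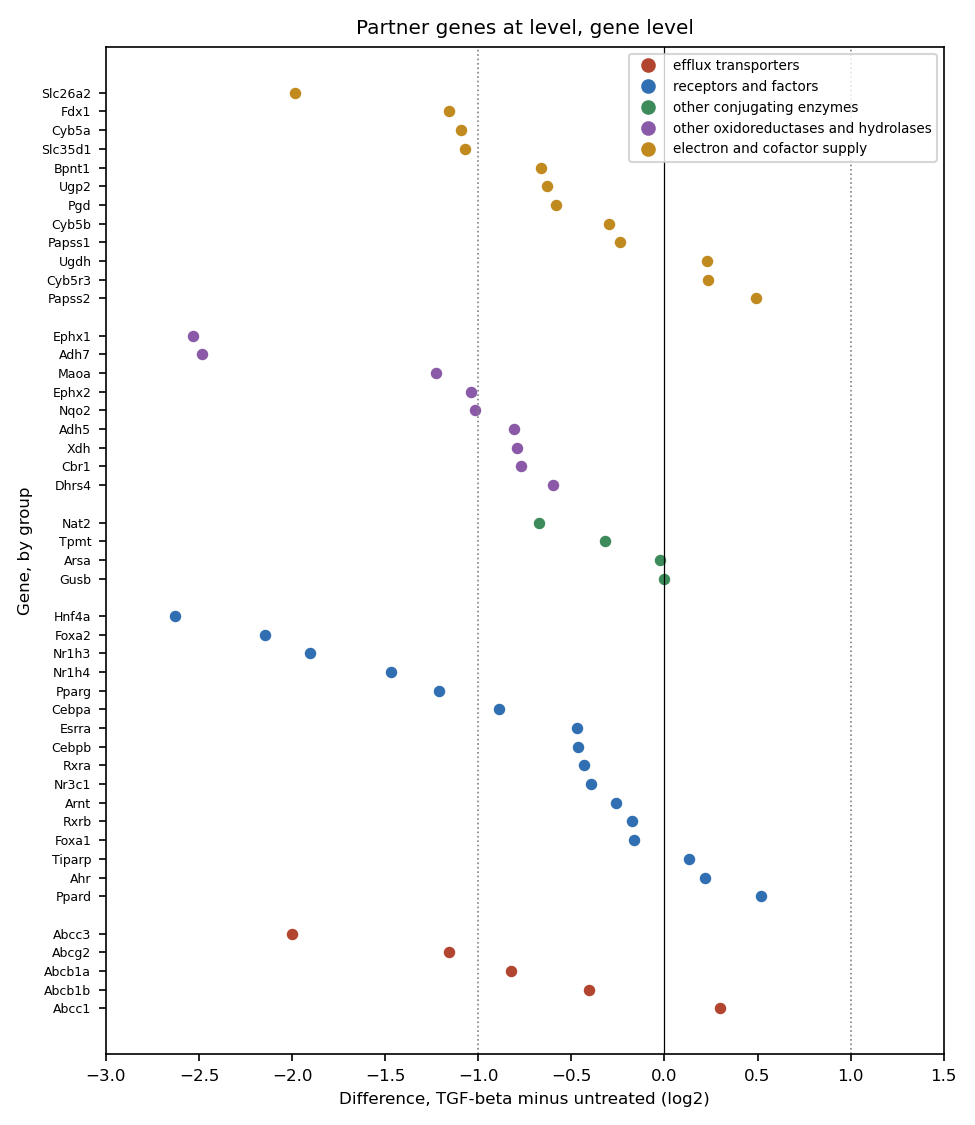
Gene-level difference (TGF-beta minus untreated, log2) of the 46 partner genes at level, by group; dotted lines mark 1 and −1. The lowest were Hnf4a (−2.63), Ephx1 (−2.53) and Adh7 (−2.49), and Papss2 and Ppard lay highest at 0.49 and 0.52.

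Other oxidoreductases and hydrolases at level were all below 0, with 5 of 9 lower, or 2 after centring or quantile normalization and 3 with the trend taken out. Over all genes at level, 72.3% were below 0 and 8.70% were lower. The microsomal epoxide hydrolase Ephx1, which often acts on P450 products, was at 2904 and 501 (−2.53), and the alcohol dehydrogenase Adh7 of stomach and other epithelia was at 2427 and 432 (−2.49). Maoa (−1.23), Ephx2 (−1.04) and Nqo2 (−1.02) were nearer to 2-fold, and of these Ephx2 alone passed it under any scaling, with the trend taken out. None of 4 other conjugating enzymes at level passed 2-fold, the largest differences being those of Nat2 (−0.67) and Tpmt (−0.32, above 0 after quantile normalization and with the trend taken out). Of 5 efflux transporters, Abcc3, which exports glucuronides, was at 1877 and 468 (−2.002) and Abcg2 at 329 and 147 (−1.16, within 2-fold under all 3 scalings), while Abcc1 was at 1309 and 1608 (0.30).

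Among 16 receptors and transcription factors at level, 5 were lower, beside 8.70% of all genes at level. Hnf4a, a nuclear receptor that drives many of these enzymes in liver, was at 3732 and 603 (−2.63), and the forkhead factor Foxa2 was at 1448 and 326 (−2.15). The oxysterol receptor Nr1h3 was at 463 and 123 (−1.91), the bile acid receptor Nr1h4 at 359 and 129 (−1.47), and Pparg at 878 and 379 (−1.21, within 2-fold under all 3 scalings). Ahr itself was at 713 and 828 (0.22), its partner Arnt at 1465 and 1226 (−0.26, but 0.02 after centring), and its target Tiparp at 905 and 991 (0.13). The xenobiotic receptors Nr1i2 (35.2 and 49.0) and Nr1i3 (29.2 and 34.8) were below the rule in both arrays. Among 4 hepatocyte markers measured, Alb was at 162 and 31.9, Ttr at 149.7 and 73.5 and Apoa2, the third at level, at 187 and 167 (−0.16, above 0 under all 3 scalings). The summed intensity of the 4 was 553 and 342. Of 3 enterocyte markers, Vil1 was at 277 and 70.3, and the sum was 318 and 118. Fabp1, Fabp2 and Tat were below the rule in both arrays, and the part of such markers in the enzyme results was not tested.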

How the data were processed

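RNA of untreated and TGF-beta-treated NMuMG cells was measured on Affymetrix exon arrays, with biotin labelling, per the labels. The deposited values are intensities on a linear scale, summarised by the authors per transcript cluster (gene level) or per probeset (exon level), and the series' design text says that core probesets were analysed. The sources used here do not state how background was corrected, how arrays were scaled or which build was used. Genes were named from the platform annotation (rows with 1 symbol), updated through RefSeq (GRCm38.p6). Of the 1344 member probesets, 58 were named through a synonym, and 1308 match by the annotation's own symbols. For symbols with more than 1 cluster, the brighter was taken.

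Differences are of log2(intensity + 1). With 1 array per group the precision is limited by that number, and no test was run. Genes named in the text were those at level and past 2-fold, the 3 brightest of each family, up to 2 departing probesets of each family, and partner genes past 2-fold or the 2 largest of their group; others named were chosen after their values were seen. Members and lists were chosen with earlier results of these data known. The calling steps were tested on simulated arrays, with changes planted only in bright genes and probesets and no shift between arrays. That test therefore does not cover differences that end near the bottom of the scale. Alternatives were 3 scalings (centring, quantile, and lowess with a span of 0.3), a pseudocount of 16, other level rules, means over clusters, exon medians and annotation symbols. Software was Python 3.11.15 with numpy 2.4.6, pandas 2.3.3 and statsmodels 0.14.6.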

Additional observations from a re-analysis of the deposited data

How the results depend on the processing

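No paired analysis was possible because each group held 1 array, and for the same reason no replicate could be left out. The count of lower members at gene level was 10 as reported, 6 when the larger intensity had to reach the 75th percentile and 3 when both arrays had to reach the median, and that of higher members was 1, 0 and 0, and 2 with no filter. These rules held 32, 16 and 22 members, and 90 with no filter. Over all genes, 797 of 9159, 370 of 5001 and 587 of 8214 were lower under these rules, and 862 of 14847 with no filter. Those higher numbered 209, 121 and 155, and 274 with no filter. Centring, quantile normalization and removal of the trend each lost the call of Aldh3a2 alone, which left 1 lower Aldh gene. Under the 75th percentile rule 1 Akr, 1 Aldh and 1 Cyp gene were lower and 0 Aldh genes higher. With both arrays above the rule 0 Akr, 1 Aldh, 1 Cyp, 1 Sult and 0 Ugt genes were lower and 0 Aldh genes higher. With no filter 1 Cyp gene and 1 partner gene (Nat1) were higher. The members' median of −0.65 was −0.38 after centring, −0.34 after quantile normalization, −0.40 after removal of the trend and −0.54 with both arrays above the rule, and it reversed to 0.062 with no filter, which lets in 58 dim genes. Lower partner genes numbered 8 after centring and 9 after quantile normalization; partner alternatives were chosen after seeing the data. At exon level, 116 lower, 13 higher and 48 departing probesets became 220, 100 and 215 with no filter and 47, 3 and 12 under the 75th percentile rule, and 27 were higher after quantile normalization. Shares over all probesets were not computed with no filter or under the 75th percentile rule, so these exon counts show only how the members' own counts depend on the rule. The calls of the 10 lower genes and of Aldh1l1 held with a pseudocount of 16, with means over clusters, with annotation symbols and with exon medians, which added Aldh4a1. Of 177 differences of single named genes under the alternatives, 166 moved by less than the SD of the gene's probesets (or 0.1 where under 3 probesets were at level), 11 by more, and none of those past 2-fold changed sign. Other level rules, means over clusters and annotation symbols left the difference of each of these genes as it was. Many of the 166 were therefore fixed in advance, and all 11 arose under the scalings or the pseudocount of 16. Signal near the bottom of the scale could not be told from background, which limits the size of every difference that ends there.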

Other observations

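Of 33 gene-level clusters that carry several symbols with at least 1 of these families among them, 6 were at level. Of these 6, only the Ugt1a cluster passed 2-fold. The cluster annotated to Cyp2d40, Cyp2d10 and Cyp2d9 was at 206 and 257 (0.32). The cluster annotated to Akr1c13 and Akr1c12 was at 219 and 149.6 (−0.55), that of Cyp4f16, Cyp4f40 and Cyp4f17 at 1185 and 1663 (0.49), that of Cyp21a1 and its pseudogene at 243 and 285 (0.23), and that of Aldh3b2 and Aldh3b3 at 223 and 216 (−0.05).

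Of the 58 members not at level, 42 had a difference above 0 and 16 below, with a median of 0.20. The 5688 named genes not at level had a median of 0.21, and 25.8% of them lay below 0.

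Some exon-level intensities shared a fractional part. The commonest one was 0.0616 or 0.5616, and of the probesets with a splicing index 2.63% carried it, within 0.002, in both arrays. Among member probesets with an index the share was 5.23%. The fraction was carried by 8.06% of all departing probesets and by 5 of the 48 departing member probesets (10.4%). Among these 5 were Cyp2s1 probeset 5196537, Cyp2d26 probeset 4531952 and Aldh16a1 probeset 5467811. Without such probesets, a step chosen after seeing the data, 41 member probesets departed. What gives these values their common fraction was not tested.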
